A study of Homo sapiens with 18 samples.

Results

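Translation initiation and elongation factors are the proteins that bring a ribosome to a start codon and then move it along the message. They were taken as every protein-coding gene of GENCODE 29 whose symbol starts with EIF1 to EIF6 or with EEF, leaving out the EIF2AK kinases and pseudogenes. That rule found 68 genes, of which 66 were in the deposited table of 58050 gene identifiers. The 2 others, EEF1AKMT4 and the readthrough gene EEF1AKMT4-ECE2, were not analysed here. A value of 10 or more in at least 3 of the 18 libraries was reached by 57 of the 66 genes and by 15228 of all identifiers, and these were tested. The tested members were sorted into 12 groups, each named for a complex or step. A place in a group, as for EIF1AD and EEF1E1, does not mean that the gene is an established part of it.

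In translation initiation, eIF2 carries the initiator tRNA to the small ribosomal subunit, eIF3 holds the pre-initiation complex together, and the eIF4 factors recruit the message by its cap and unwind its leader. The start codon is then selected with eIF1, eIF1A and eIF5, and eIF5B joins the large subunit. During elongation eEF1 delivers aminoacyl-tRNA and eEF2 translocates the ribosome. DDX3X, the gene targeted in these cells, encodes a DEAD-box RNA helicase known to act with the initiation machinery on structured leaders.

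The cells were KNS-42, an established glioma cell line that here expressed Cas9 and was grown with puromycin. Parental cells were set beside 2 lines with codon-optimised overexpression, of DDX3X in DDX3Xoe cells and of its close homologue DDX3Y in DDX3Yoe cells. All received, by lentivirus, either guide RNA 395 against endogenous DDX3X or the control guide AAVS1, and total RNA was taken on day 7. The 6 groups held 3 libraries each. The sources used here give neither the promoter of the overexpressed genes nor whether a line was 1 clone. They also do not say whether replicates were separate cultures, so a p-value reflects the spread of these libraries alone, which may be technical. Libraries were made with a kit that reads the 3′ end of polyadenylated RNA, so counts are not scaled up by longer transcripts, and levels of different genes can be set side by side as tag counts. Values below are normalised read counts, and lists of 3 values are in the order of replicates 1, 2 and 3.

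Libraries held 5667609 to 13201602 recovered reads, so that a count of 0 allows a value of up to 2.01 to 4.29 (3 reads). These limits cover counting error only. DDX3X values in parental cells were 1780.5, 1923 and 1729 under AAVS1 and 861, 844 and 953 under guide 395, that is -1.03 on the log2 scale (adjusted p = 0.08, limma). The 3′ tags may lie outside the stretch that the guide cuts, so they are no direct check of the edit. The replicate 1 libraries labelled DDX3Xoe go against their guide labels, with DDX3X at 668 in the library labelled AAVS1 and 1416 in the library labelled 395. Every direction given below for DDX3Xoe cells rests in part on these labels. Of the 6 neural and glioma markers, SOX2, VIM, CD44, GFAP and NES were detected in all libraries and OLIG2 was at 0, while PTPRC, EPCAM and ALB stayed at or below 6.69 and PECAM1 at or below 40.5. In parental cells NES, an intermediate filament gene of neural progenitors, fell by 1.71 on the log2 scale (adjusted p = 0.00314, limma), and none of the other 4 detected markers passed the test. Mitochondrially encoded genes held 13.2, 16.5 and 11.3% of the signal in parental AAVS1 libraries and 9.11, 11.1 and 7.78% in parental 395 libraries, groups that do not overlap. Its part in the fold changes of single members was not tested, and the members' summed share with mitochondrial genes left out is given with the shares further on.

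Several mRNAs of the translation machinery begin with a terminal oligopyrimidine tract, a C at the cap followed by a run of C and T, through which their translation is known to be controlled together. Start sites from RefSeq on GRCh38.p14 were matched by symbol to 46 of the 57 tested members, with 62 starts in all. The tract was read on the transcribed strand only and at the start position only, as a C followed by at least 4 bases that are each C or T. It was present at a start of 12 of the 46 members (26.1%), against 5.14% of 27305 genes and 4.07% of 35116 promoters in the same table. The windows of 30 bases below run from 10 bases before the start to 20 bases into the first exon, 5′ to 3′, with the tract in capitals from the start base. They are shown because they hold elongation factors, eIF3 subunits and eIF4 factors whose values are given further on, and the last 3, with no tract at the start, belong to members of small p in the parental comparison.
EEF1A1, chr6:73521013-73521042, minus strand: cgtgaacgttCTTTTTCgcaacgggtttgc
EEF1B2, chr2:206159885-206159914, plus strand: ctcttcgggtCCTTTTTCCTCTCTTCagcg
EEF2, chr19:3985444-3985473, minus strand: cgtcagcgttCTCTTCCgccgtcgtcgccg
EIF3D, chr22:36529147-36529176, minus strand: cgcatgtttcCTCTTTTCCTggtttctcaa
EIF3F, chr11:7987327-7987356, plus strand: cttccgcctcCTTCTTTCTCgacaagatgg
EIF3K, chr19:38619178-38619207, plus strand: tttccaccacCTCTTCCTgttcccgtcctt
EIF4A2, chr3:186783567-186783596, plus strand: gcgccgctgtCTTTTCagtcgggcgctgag
EIF4B, chr12:53006446-53006475, plus strand: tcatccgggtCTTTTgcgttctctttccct
EIF4ENIF1, chr22:31489823-31489852, minus strand: gccgggctgcagttacggcggctgaagaga
EEF2K, chr16:22206268-22206297, plus strand: gcccgcttctgctcaacctagaccagcccc
EIF1AX, chrX:20141819-20141848, minus strand: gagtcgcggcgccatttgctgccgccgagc
The tract was longest in EEF1B2, at 16 bases, and that gene also has a second listed start with none. EIF3D and EIF3F carry 10 bases, EIF3K 8, EEF1A1 and EEF2 7, EIF4A2 6 and EIF4B 5. The other 4 members with a tract were EIF2A, EIF2D, EIF2S3 and EIF3M. A match is a description of these letters, not a mapped site.

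The factors spanned a wide range of levels. EEF2, the translocase, was the highest, with a mean of 16501 over the 18 libraries and a range of 10162 to 31416. It alone made up 16.0 to 32.0% of the members' summed signal in a library. Next came EIF5B, the subunit-joining GTPase (6622), EIF3A, the scaffold of eIF3 (5346), EIF4G2, a scaffold that lacks the eIF4E-binding site (4974), and EIF4G1, the main cap-complex scaffold (4203). The 10 highest members held 67.1% of the members' signal. Of the 66 genes, 20 had a mean of 1000 or more and 50 a mean of 100 or more. Among the 57 tested members EIF5B varied least between libraries, with a coefficient of variation of 8.94%, and EIF4H, a helicase cofactor, varied most, with 94.7%.

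The 9 genes of the table that missed the minimum include subunits found in all cells. EEF1G, the gamma subunit of eEF1, was listed at 0 in every library, and so were EIF4EBP3, EIF4E1B, EIF3CL, EIF1AY and the readthrough gene EEF1E1-BLOC1S5. EIF3C lay between 0 and 9.58 and EIF3L between 0 and 7.46, and EIF2S3B reached 0.98 in 1 library. EIF3C has the near-identical copy EIF3CL, the 3′ end of EEF1G is shared with the readthrough gene AP002990.1 and that of EIF3L with AL022311.1, which had a mean of 25.7. The treatment of reads that match more than 1 gene was not stated in the sources used here, so these values say nothing of whether the genes were expressed. EEF1A1, which delivers aminoacyl-tRNA, was at a mean of 245 only, and 39 pseudogene copies of it in the table summed to 11.3. Its level and that of EIF5AL1 (1472), a close copy of EIF5A (781), are uncertain for the same reason. The 3′ ends of EIF3A, EIF3G, EIF3J, EIF4A2, EIF5B, EIF2B1 and EEF2KMT overlap a gene on the opposite strand with reads, and the strand setting of the counting was not given. Those of EEF1D, EEF2K and EIF2B2 overlap opposite-strand genes that were at 0 in all libraries. On the same strand, EIF4A1 shares its 3′ end with the readthrough gene SENP3-EIF4A1 (mean 0.0977) and with AC016876.2 (mean 0.0459), so its level is uncertain too.

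In parental cells no factor passed the test for guide 395 against AAVS1. More members had lower than higher values: 37 of the 57 members had a log2 fold change below 0, with a median of -0.21, while 48.9% of all 15228 genes were below 0 and their median was 0.02. The members farthest from 0 by p were EIF4ENIF1, an eIF4E-binding protein with higher values under guide 395, and EIF3K, EEF2K, EEF1D, EIF3B and EIF3D with lower ones. Limma with Benjamini-Hochberg adjustment over all genes called 0 of 57 members, against 1.78% of all genes called (0.801% lower and 0.978% higher). It gave 9 members (15.8%) at an unadjusted p under 0.05, beside 16.9% of all genes. By edgeR 0 members were called and 12 (21.1%) reached that level, as did 17.1% of all genes, with 0.781% of all genes called lower and 0.821% higher. DESeq2 called 2 members, EIF3K and EIF4ENIF1, against 3.16% of all genes lower and 2.94% higher, and 12 members (21.1%) reached an unadjusted p under 0.05, beside 19.1% of all genes. All 3 libraries under guide 395 were below all 3 under AAVS1 for 9 members (15.8%) and above them for 1 (1.75%), beside 9.86% and 10.7% of all genes. In these bulk samples of a cell line, a shift in the mix of cell states and a shift in every cell cannot be told apart. The values are scaled by 1 factor per library and do not measure RNA per cell.

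**Figure D1:**
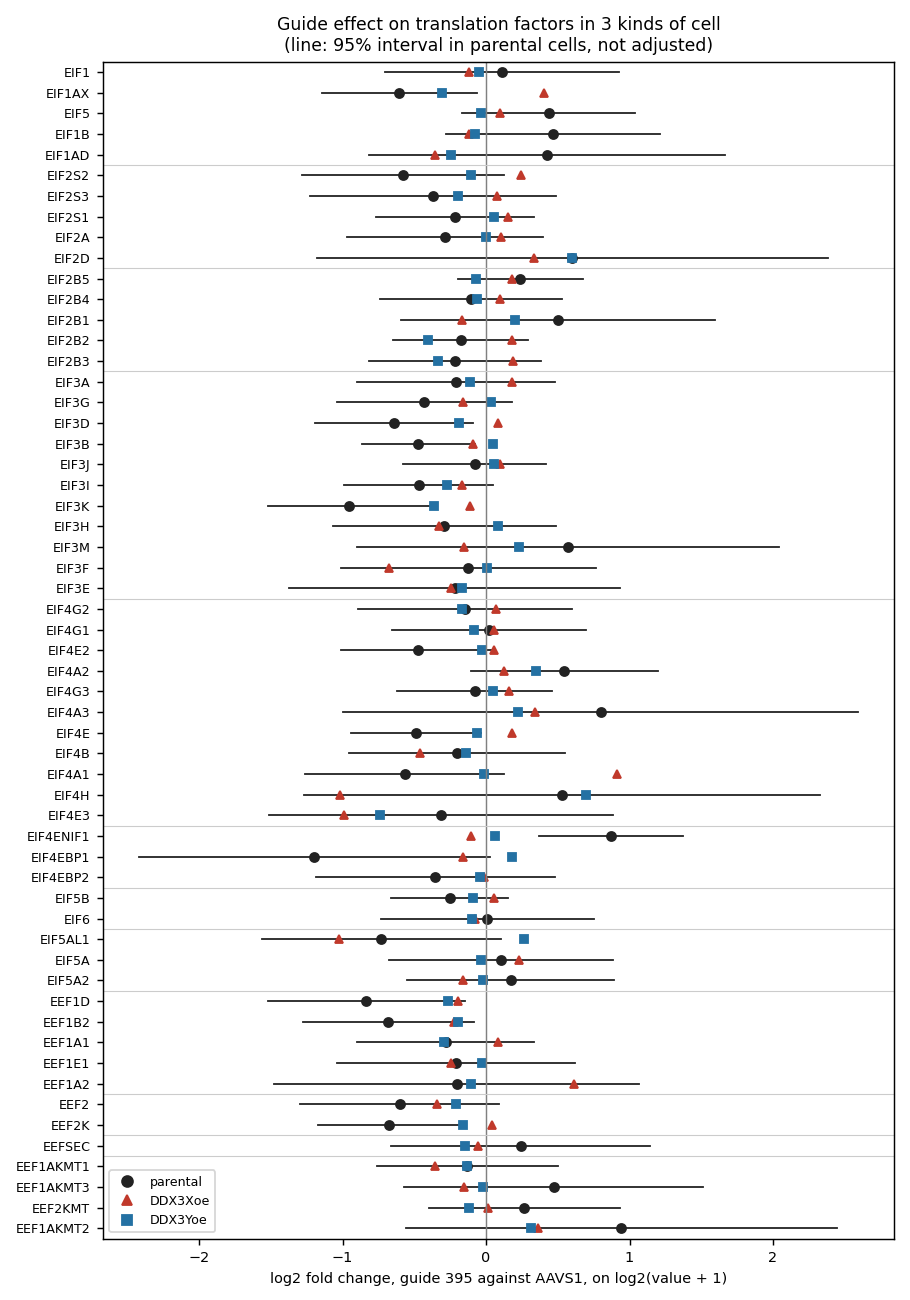
Log2 fold changes (guide 395 against AAVS1, on log2(value + 1)) of 57 factors by factor group, with 95% intervals that are not adjusted for the number of genes for parental cells (black), and points for DDX3Xoe (red) and DDX3Yoe cells (blue). In parental cells 37 points lie left of 0, and EIF4ENIF1 is the only member whose interval lies wholly to the right.

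In the start codon selection group, 4 of 5 members had parental fold changes above 0 and EIF1AX was the exception. EIF1, which guards the fidelity of start codon choice, is the most abundant of them. Its parental values were 4445, 2849 and 3929 under AAVS1 and 5503, 3474 and 3299 under guide 395. The groups overlap, and the log2 fold change was 0.11 (95% interval -0.70 to 0.93). Across the other fits, those with libraries left out included, the fold change of EIF1 ran from -0.12 to 0.25. EIF1AX, which encodes the scanning factor eIF1A, stood at 1085, 1165 and 1306 under AAVS1 and at 616, 973 and 782 under guide 395. All 3 values under guide 395 were the lower ones, which gave -0.60 ± 0.26 (SE) on the log2 scale (adjusted p = 0.233, limma). EIF5, the GTPase-activating protein for eIF2, EIF1B, a paralogue of EIF1, and EIF1AD had log2 fold changes of 0.44, 0.47 and 0.43. For EIF1B the same-numbered pairs differed by 0.17, 1.25 and -0.01, with AAVS1 values of 203, 62.0 and 156, so its sign rests largely on AAVS1 replicate 2. In DDX3Xoe cells EIF1AX had the other sign, 865, 705 and 1219 in the libraries labelled AAVS1 and 1439, 1325 and 907 in those labelled 395. These groups overlap. The difference between the guide effects in DDX3Xoe and parental cells was 1.01 on the log2 scale (adjusted p = 0.488, limma). DDX3Yoe cells held 1519, 1063 and 962 under AAVS1 and 944, 839 and 1039 under guide 395, again with overlap.

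The eIF2 group showed 4 of 5 members below 0 in parental cells, none past an unadjusted p of 0.05. EIF2S2, the beta subunit, was its most abundant member. It had 2433, 3441 and 4152 under AAVS1 and 2378, 2322 and 1886 under guide 395 in parental cells. The groups do not overlap, though the lowest AAVS1 value lies only just above the highest under guide 395, and the log2 fold change was -0.58 (adjusted p = 0.401, limma). In DDX3Xoe cells it gave 2133, 2268 and 4439 in the libraries labelled AAVS1 and 2755, 2745 and 4733 in those labelled 395. DDX3Yoe cells held 2576, 2062 and 3898 under AAVS1 and 2031, 2266 and 3636 under guide 395. Replicate 3 was the highest of its group in 5 of the 6 groups. EIF2S1, the alpha subunit that stress kinases phosphorylate, and EIF2S3, the gamma subunit that binds GTP and tRNA, had parental log2 fold changes of -0.22 and -0.37. EIF2A and EIF2D are separate proteins and not subunits of eIF2, and had -0.29 and 0.60. The same-numbered pairs of EIF2D differed by -0.04, 1.47 and 0.37.

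eIF2B is the exchange factor that recycles eIF2 to its GTP form. Its catalytic subunit, EIF2B5, was the most abundant of the 5, with 671, 827 and 585 under AAVS1 and 877, 776 and 780.1 under guide 395 in parental cells. Its log2 fold change was 0.24 (95% interval -0.20 to 0.67), and the groups overlap. EIF2B2 had all parental values under guide 395 below those under AAVS1, 249, 206 and 251 against 252, 257 and 288, a log2 fold change of -0.18. In DDX3Yoe cells EIF2B2 gave 290.3, 257 and 339.6 under AAVS1 and 197, 226 and 244 under guide 395. The groups do not overlap there either, with -0.41 on the log2 scale and an adjusted p of 1 in limma; its unadjusted p was the smallest of any member in that comparison. EIF2B3 in DDX3Yoe cells held 228, 243 and 211 under AAVS1 and 177, 178 and 185 under guide 395. Those groups are also separate, with a log2 fold change of -0.33 (adjusted p = 1 in limma). EIF2B1 and EIF2B4 had parental log2 fold changes of 0.50 and -0.10.

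Of 11 tested eIF3 subunits, 10 had parental fold changes below 0, with a median of -0.29, and EIF3M (0.57) was the exception. The same-numbered pairs of EIF3M differed by -0.07, 1.58 and 0.20, so most of its value came from pair 2. EIF3K, a peripheral subunit (ENSG00000178982, chr19:38619082-38636955 on the plus strand, GRCh38), had the smallest p. Its parental values were 994, 2258 and 1162 under AAVS1 and 753, 765 and 622 under guide 395. All AAVS1 values were higher, and replicate 2 stood far above the others. The log2 fold change was -0.95 ± 0.27 (SE, n = 3 against 3), with an adjusted p of 0.0733 in limma and of 0.0115 in DESeq2. Without AAVS1 replicate 2, which also had the highest mitochondrial share, it was -0.60 (adjusted p = 0.305, limma). Limma with the replicate block gave an adjusted p of 0.0517, and with a block within each kind of cell 0.0436, a call beside 2.32% of all genes lower and 2.52% higher. The same-numbered pairs differed by -0.40, -1.56 and -0.90. In DDX3Xoe cells EIF3K gave 1254, 1389 and 1247 in the libraries labelled AAVS1 and 1395, 883 and 1403 in those labelled 395, which overlap. DDX3Yoe cells had 979, 1159 and 1323 under AAVS1 and 894, 819 and 959 under guide 395, all lower, with a log2 fold change of -0.36 and adjusted p = 1 in limma. The guide effect differed between DDX3Xoe and parental cells by 0.84 (adjusted p = 0.598, limma).

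EIF3B and EIF3D had the next smallest p among the eIF3 subunits. EIF3B, a core subunit, had parental values of 1899, 2142 and 1738 under AAVS1 and 1324, 1262 and 1589.5 under guide 395. These groups are separate, and the log2 fold change was -0.47 ± 0.19 (SE) with an adjusted p of 0.203 in limma. In DDX3Yoe cells the EIF3B values were 1566, 2028 and 2021 under AAVS1 and 2055, 1821 and 1903 under guide 395, and the groups overlap. EIF3D, a subunit that can bind the cap of some messages, gave 1440.1, 2972 and 2491 under AAVS1 and 1141, 1407 and 1747 under guide 395 in parental cells. AAVS1 replicate 1 lies within the range of the guide 395 libraries, so the groups overlap at a log2 fold change of -0.64 (adjusted p = 0.216, limma). Without AAVS1 replicate 2 this was -0.43.

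EIF3A, the most abundant subunit, stood at 3723, 4869 and 4764 under AAVS1 and 2236, 4991 and 5018 under guide 395 in parental cells. A single library, guide 395 replicate 1, was low, and the log2 fold change of -0.21 had a 95% interval of -0.90 to 0.48. EIF3F, a subunit with a tract of 10 bases, had 476, 185 and 278 in the DDX3Xoe libraries labelled AAVS1 and 281, 90.03 and 237 in those labelled 395. These overlap, and the log2 fold change of -0.67 (adjusted p = 1, limma) was -0.32 without AAVS1 replicate 1 and -0.17 without 395 replicate 2. The remaining subunits below 0, EIF3E, EIF3G, EIF3H, EIF3I and EIF3J, had parental log2 fold changes between -0.47 (EIF3I) and -0.08 (EIF3J). In DDX3Xoe cells 8 of the 11 subunits were below 0 and in DDX3Yoe cells 5.

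In the eIF4 group, which binds the cap and unwinds the leader, 7 of 11 members were below 0 in parental cells. EIF4G2, its most abundant member, gave 7711, 3732 and 4963 under AAVS1 and 6400.0, 3709.8 and 4435 under guide 395. Replicate 1 was the highest in both groups, and the log2 fold change was -0.15 (95% interval -0.89 to 0.60). EIF4E, the cap-binding protein, had all values under guide 395, 369, 409 and 338, below those under AAVS1, 441, 671 and 477. This was a log2 fold change of -0.49 ± 0.22 (SE) with an adjusted p of 0.257 in limma. EIF4E2, a cap-binding protein that represses translation, and EIF4G1 had -0.48 and 0.02.

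The genes of the leader-unwinding helicase, EIF4A1 and EIF4A2, had parental log2 fold changes of opposite sign, -0.57 and 0.55. Leaving out 1 library moved EIF4A1 between -0.99 (without 395 replicate 2) and -0.30 (without 395 replicate 3), and EIF4A2 between 0.25 (without 395 replicate 1) and 0.75 (without 395 replicate 3). EIF4A1 was lower under guide 395 in all 3 same-numbered pairs, by only -0.08 in pair 2, and EIF4A2 was higher in all 3 (0.81, 0.41 and 0.43). EIF4A1 held 195, 299 and 215 under AAVS1 and 127, 282 and 107 under guide 395 in parental cells. The DDX3Xoe libraries labelled AAVS1 held 226, 228 and 282 and those labelled 395 held 517, 597 and 314. In DDX3Xoe cells all libraries labelled 395 were higher, with a log2 fold change of 0.91 ± 0.33 (SE) and an adjusted p of 1 in limma. Without both replicate 1 libraries it was 0.77. The difference between the guide effects in DDX3Xoe and parental cells was 1.48 (adjusted p = 0.419, limma). EIF4A2 was at 1640.2, 1268 and 1069.9 under AAVS1 and 2869, 1679 and 1439 under guide 395 in parental cells, and these groups overlap. In DDX3Yoe cells EIF4A2 gave 904, 930.2 and 882 under AAVS1 and 1010.0, 1222 and 1246 under guide 395, all higher, with 0.35 on the log2 scale and adjusted p = 1 in limma. EIF4A3, the helicase of the exon junction complex, had 0.80 in parental cells. Its same-numbered pairs differed by -0.24, 2.02 and 0.62, so most of that value came from pair 2.

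EIF4B, which stimulates the helicase, gave 666, 393 and 259 in the DDX3Xoe libraries labelled AAVS1 and 290.0, 290.1 and 310.0 in those labelled 395. One library, AAVS1 replicate 1, stood above the rest: the log2 fold change was -0.46 with it and -0.11 without it. EIF4E3, a low-level member of the cap-binding family, had 48.3, 19.2 and 19.8 in DDX3Xoe libraries labelled AAVS1 and 14.8, 4.29 and 30.7 in those labelled 395. The library with 4.29 holds 3 reads, the limit that a count of 0 allows, and without it the log2 fold change moved from -0.99 to -0.29. In DDX3Yoe cells EIF4E3 was at 27.8, 32.3 and 27.1 under AAVS1 and 10.7, 20.6 and 21.7 under guide 395, all lower (-0.74, adjusted p = 1, limma). EIF4H and EIF4G3 had parental log2 fold changes of 0.53 and -0.08. The same-numbered pairs of EIF4H differed by -0.45, 1.78 and 0.25.

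EIF4ENIF1 (ENSG00000184708, chr22:31436977-31496108 on the minus strand, GRCh38) encodes 4E-T, a protein that binds eIF4E, carries it into the nucleus and represses messages in P-bodies. It had the smallest p of all members in parental cells. The parental values were 281, 165 and 325 under AAVS1 and 480.0, 397 and 485 under guide 395. All 3 values under guide 395 lay above all 3 under AAVS1, with means of 454 ± 49.2 (SD, n = 3) and 257 ± 82.5 (SD, n = 3). The log2 fold change was 0.87 ± 0.24 (SE), and the adjusted p was 0.068 in limma, 0.0828 in edgeR and 0.0199 in DESeq2. With the replicate number as a single block over all 18 libraries, limma gave an adjusted p of 0.0496. In that fit 2.24% of all genes were called lower and 2.21% higher. Same-numbered libraries did not all deviate together in DDX3Xoe and DDX3Yoe cells, which this fit includes. Without AAVS1 replicate 2, the lowest library, the log2 fold change was 0.58 (adjusted p = 0.279, limma). Without AAVS1 replicate 3 it was 1.07 (adjusted p = 0.0379, limma), a call beside 1.1% of all genes lower and 1.31% higher. In DDX3Xoe cells EIF4ENIF1 gave 371, 353 and 315 in the libraries labelled AAVS1 and 301, 354 and 311 in those labelled 395. In DDX3Yoe cells it gave 299.8, 375 and 285 under AAVS1 and 319.9, 364 and 313 under guide 395. Both pairs of groups overlap, and all 4 group means lie between those of the parental groups. The guide effect minus that in parental cells was -0.97 in DDX3Xoe cells (adjusted p = 0.459) and -0.81 in DDX3Yoe cells (adjusted p = 0.99), neither past the threshold in limma.

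EIF4EBP1 and EIF4EBP2 encode inhibitors that hold eIF4E away from eIF4G until mTOR phosphorylates them. EIF4EBP1 had 154, 227 and 426 under AAVS1 and 111, 90.5 and 122 under guide 395 in parental cells. The groups do not overlap, but AAVS1 replicates spread widely, and the log2 fold change of -1.20 had a 95% interval of -2.42 to 0.03 (adjusted p = 0.308, limma). It was the parental value of largest size among the 57 members. Replicate 3 was the highest library of its group for EIF4EBP1 in all 6 groups. DDX3Xoe cells had 127, 238 and 425 in libraries labelled AAVS1 and 126, 156 and 472 in those labelled 395, and DDX3Yoe cells held 141, 107 and 486 under AAVS1 and 236, 146 and 313 under guide 395. EIF4EBP2 had -0.35 in parental cells.

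**Figure D2:**
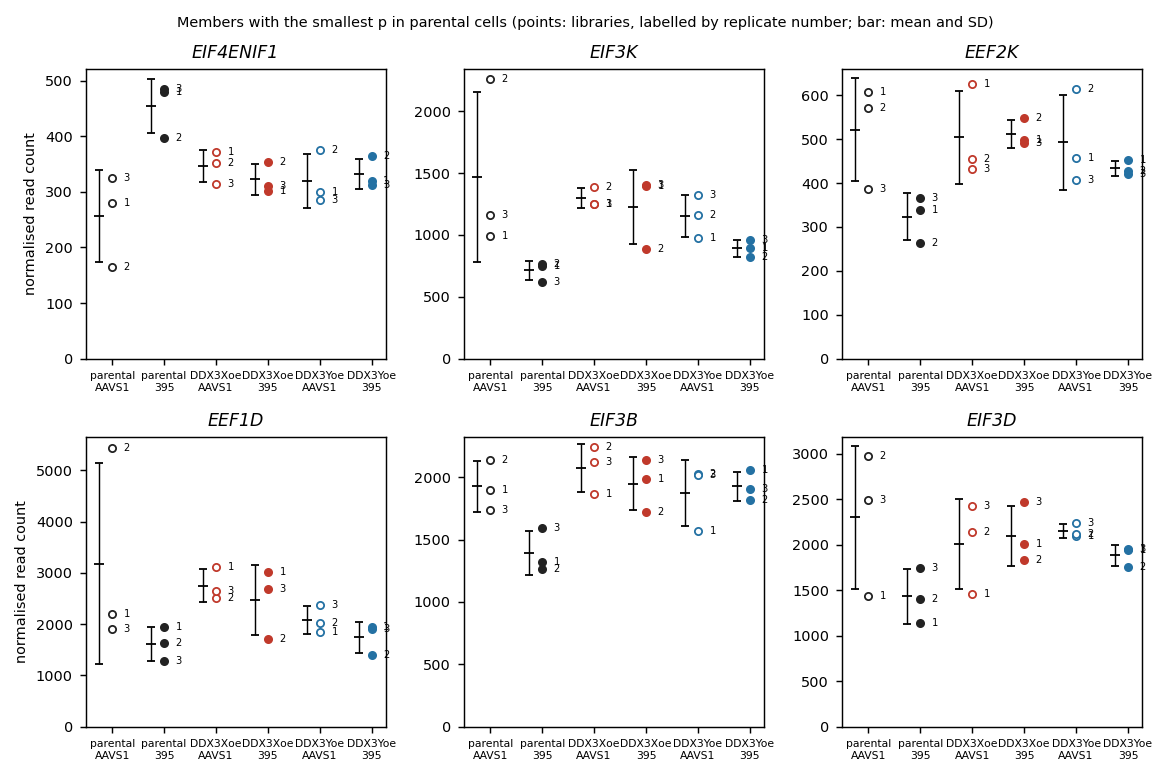
Normalised read counts of the 6 members with the smallest p in parental cells, in every library (points, labelled with the replicate number; open, AAVS1; filled, guide 395), with mean and SD to the left. EIF4ENIF1 is higher in all 3 parental libraries under guide 395, and the AAVS1 replicate 2 library is extreme for EIF4ENIF1, EIF3K and EEF1D.

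At subunit joining, EIF5B was the steadiest of the tested members. Its parental values were 7388, 7615 and 6321 under AAVS1 and 5532, 6396 and 5953 under guide 395. They overlap, at a log2 fold change of -0.25 (95% interval -0.66 to 0.16), and in DDX3Xoe and DDX3Yoe cells it was 0.06 and -0.09. EIF6, which keeps the large subunit from joining too early, had 0.01 in parental cells (95% interval -0.73 to 0.75).

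eIF5A, the only protein known to carry hypusine, helps ribosomes through hard stretches. EIF5AL1, whose reads may belong to EIF5A in part, had 4148, 1649 and 1418 under AAVS1 and 1873, 872 and 1303 under guide 395 in parental cells. DDX3Xoe cells had 2114, 1430.4 and 1162 in libraries labelled AAVS1 and 528, 734 and 1080.0 in those labelled 395. The DDX3Xoe groups do not overlap, with a log2 fold change of -1.02 ± 0.40 (SE) and an adjusted p of 1 in limma. Without both replicate 1 libraries it was -0.53. EIF5A and EIF5A2 had parental log2 fold changes of 0.10 and 0.17.

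All 5 tested genes of the eEF1 group had parental fold changes below 0, with a median of -0.28. EEF1D, the delta subunit of the exchange complex, was the most abundant of them. It gave 2198, 5436 and 1899.9 under AAVS1 and 1938, 1621 and 1273 under guide 395. AAVS1 replicate 2 stood at more than any other library, and guide 395 replicate 1 lay above AAVS1 replicate 3, so that the groups overlap. The log2 fold change was -0.83 ± 0.33 (SE; adjusted p = 0.191, limma), and -0.36 without that library. EEF1B2, the exchange subunit for eEF1A, had 863, 1398 and 868 under AAVS1 and 779.8, 643 and 505 under guide 395, all lower, a log2 fold change of -0.68 ± 0.28 (SE; adjusted p = 0.223, limma). EEF1A1, EEF1A2 and EEF1E1, a scaffold protein of the tRNA synthetase complex, had -0.28, -0.21 and -0.21. EEF1A1 held 181, 198 and 367 under AAVS1 and 160, 192 and 239 under guide 395, which overlap. EEF1A2, at only 5.33 to 42.9 over all libraries, had same-numbered differences of -0.88, 0.63 and -0.37. All 5 genes were below 0 in DDX3Yoe cells too, between -0.29 and -0.03, and 3 of 5 in DDX3Xoe cells.

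EEF2 (ENSG00000167658, chr19:3976056-3985469 on the minus strand, GRCh38) held 21484, 21889 and 15376 under AAVS1 and 18564, 10162 and 10987 under guide 395 in parental cells. Guide 395 replicate 1 lay above AAVS1 replicate 3, and the log2 fold change was -0.60 (95% interval -1.29 to 0.09, adjusted p = 0.375, limma). In DDX3Xoe cells the libraries labelled AAVS1 gave 31416, 14936 and 16759.5 and those labelled 395 16253, 12481 and 19134, a log2 fold change of -0.34. Without AAVS1 replicate 1, the highest of them, it was -0.01, and without AAVS1 replicate 2 -0.55. In DDX3Yoe cells it was -0.21. EEF2K (ENSG00000103319, chr16:22206282-22288732 on the plus strand, GRCh38) encodes the kinase that phosphorylates and inactivates eEF2. Its parental values were 608, 571 and 387 under AAVS1 and 338, 264 and 367 under guide 395. The groups are separate, with AAVS1 replicate 3 near those under guide 395, and the log2 fold change was -0.68 ± 0.23 (SE; adjusted p = 0.138, limma). In DDX3Xoe and DDX3Yoe cells it was 0.04 and -0.16.

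EEFSEC, which brings selenocysteine to the ribosome, had 59.8, 73.2 and 144 under AAVS1 and 81.8, 90.5 and 142 under guide 395 in parental cells, with overlap (0.24 on the log2 scale). Of the methyltransferases that modify elongation factors, EEF1AKMT1 was the most abundant, with 138, 189 and 109 under AAVS1 and 174, 112 and 111 under guide 395 (-0.13). EEF1AKMT2, EEF1AKMT3 and EEF2KMT had parental log2 fold changes of 0.94, 0.47 and 0.27. None of these 5 genes reached an unadjusted p of 0.05 in limma in a guide effect.

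In DDX3Xoe and DDX3Yoe cells the factors showed no called difference between guides. In DDX3Xoe cells 29 members were above 0 and 28 below, with a median of 0.02, and in DDX3Yoe cells 17 were above and 40 below, with a median of -0.07, beside 50.3% of all genes below 0 there. Limma called 0 members and 0% of all genes in both, with 2 members (3.51%) in DDX3Xoe and 0 in DDX3Yoe cells at an unadjusted p under 0.05, beside 2.07% and 1.00% of all genes. The same numbers were called and reached that level by edgeR and by DESeq2. In DDX3Xoe cells 1 member had all libraries labelled 395 below those labelled AAVS1 (2.04% of all genes) and 1 above (1.83%), which were EIF5AL1 and EIF4A1 (1.75% of the members each). Without both replicate 1 libraries labelled DDX3Xoe, 28 members were above 0 and 29 below, with 0 at an unadjusted p under 0.05 in limma. EdgeR put 22 above and 35 below in DDX3Xoe cells. Leaving out 1 DDX3Xoe library moved the median between -0.19 (without AAVS1 replicate 2, 19 above and 38 below) and 0.06 (without AAVS1 replicate 3, 31 above and 26 below). In DDX3Yoe cells there were 5 such members below (8.77%, beside 3.69% of all genes) and 2 above (3.51%, beside 3.8%): EIF2B2, EIF3K, EIF4E3, EIF2B3 and EIF3D below, EIF4A2 and EIF4H above.

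The differences between guide effects were tested directly. Between DDX3Xoe and parental cells limma called 0 members, beside 0.046% of all genes (0.0263% lower and 0.0197% higher), and 6 members (10.5%) had an unadjusted p under 0.05, beside 8.14% of all genes: EIF4A1, EIF4ENIF1, EIF1AX, EIF3K, EIF4E and EEF2K. EdgeR and DESeq2 called 0 members, beside 0.0394% and 0.565% of all genes in either direction, and gave 6 each at that level, and without both replicate 1 libraries labelled DDX3Xoe limma gave 3. Between DDX3Yoe and parental cells limma called 0 members and 0% of all genes, with EIF4ENIF1 alone (1.75%) at an unadjusted p under 0.05, beside 4.84% of all genes. There edgeR called 0 members and DESeq2 called 0, beside 0% and 0.07% of all genes in either direction, with 1 and 2 members at that level. These comparisons use the same parental libraries as the parental guide effect. A missed threshold does not show that the guide effects were alike. For EIF4ENIF1 the difference between DDX3Yoe and parental cells had a 95% interval of -1.52 to -0.10, not adjusted for the number of genes. That gene had the smallest p of all members in these same parental libraries, so its interval is no separate evidence of a difference. Under the control guide alone, DDX3Xoe against parental, DDX3Yoe against parental and DDX3Yoe against DDX3Xoe cells each gave 0 members called, 0% of all genes called and 0 members at an unadjusted p under 0.05 in limma, beside 0.985%, 2.64% and 0.893% of all genes, with median log2 fold changes of -0.07, -0.15 and -0.04. DDX3Xoe and parental libraries were separate for 0 members in either direction, beside 1.58% of all genes lower and 1.55% higher. DDX3Yoe libraries were below all parental ones for EIF4A2, EEF1E1 and EIF4E (5.26%, beside 3.78% of all genes) and above them for EIF3A (1.75%, beside 4.98%). They were below all DDX3Xoe ones for EEF1D (1.75%, beside 2.19%) and above them for 0 members (beside 2.02%).

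Part of the spread between libraries did not follow the groups. The parental AAVS1, parental 395 and DDX3Xoe AAVS1 libraries of replicate 1 had the highest median log2 values over all tested genes, 7.39 to 7.42 against 7.12 to 7.31 in the other 15. In these 3 libraries 13 of 57 members (22.8%) were above every value of the other 15, beside 9.6% of all genes, and EIF3A alone was below all of them (1.75%, beside 5.15%). The 13 were EEF1E1, EIF2D, EIF2S3, EIF2B1, EIF3E, EIF3H, EIF3M, EIF4A3, EIF4G2, EIF4H, EIF5AL1, EEF1AKMT3 and EIF1AD. EIF4H, for example, held 358, 262 and 415 there and 19.8 to 133 elsewhere, and its coefficient of variation was 44.4% without them. EIF3M, a subunit of eIF3, held 773 to 842 in the 3 and 95.9 to 373 elsewhere. Leaving the 3 libraries out, a choice made after the data were seen, gave a parental median of -0.16 with 0 members called, beside 0.151% of all genes called lower and 0.138% higher, and log2 fold changes of -1.23 for EIF3K and 0.92 for EIF4ENIF1.

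Members with a tract at their start had a lower median parental fold change than members without one, a difference that was not tested. Among the 12 with a tract 9 were below 0, with a median of -0.28 and a range of -0.95 to 0.60. Among the 34 with a matched start and no tract 19 were below 0, with a median of -0.09 and a range of -0.73 to 0.94. The 11 members with no matched start, whose class is unknown, had 9 below 0, a median of -0.22 and a range of -1.20 to 0.47. A low median was thus not particular to members with a tract. The ranges overlap over most of their length, and EIF2D, EIF3M and EIF4A2, all with a tract, lie above 0.5. Medians with and without a tract were -0.02 and 0.06 in DDX3Xoe cells and -0.17 and -0.05 in DDX3Yoe cells. A second list, of 8 members known as tract-bearing messages from textbooks, had 7 tested members (EEF1A1, EEF1B2, EEF1D, EEF2, EIF3E, EIF3F and EIF3H). All 7 were below 0 in parental cells, with a median of -0.29 and a range of -0.83 to -0.12, 6 of 7 in DDX3Xoe cells (median -0.25) and 5 of 7 in DDX3Yoe cells (median -0.19). Not every parental sign was firm. Across the other fits, those with libraries left out included, EIF3F ran from -0.45 to 0.22, EEF1D from -1.16 to -0.36 and EEF2 from -0.87 to -0.44. The list was chosen with earlier results of these data known. None was called by limma, edgeR or DESeq2 in these comparisons, and the lists share members with those described above.

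Paralogues kept a fixed order of tag counts in most pairs. EIF1 exceeded EIF1B in 18 of 18 libraries, with a ratio of 10.6 to 45.9, EIF4G1 exceeded EIF4G3 in 18 (3.14 to 5.28), EIF5A exceeded EIF5A2 in 18 (2.94 to 16.0) and EEF1A1 exceeded EEF1A2 in 18 (4.93 to 48.2). EIF4A2 exceeded EIF4A1 in all 18 libraries, with EIF4A1 at 0.0441 to 0.478 of EIF4A2, and EIF4E2 exceeded EIF4E in all 18, with EIF4E at 0.198 to 0.343 of EIF4E2. The median ratio of EIF4A1 to EIF4A2 was 0.201 in parental AAVS1 and 0.0746 in parental 395 libraries, groups whose single ratios overlap. It was 0.295 and 0.369 in the DDX3Xoe libraries labelled AAVS1 and 395. In DDX3Yoe cells the median ratio was 0.329 under AAVS1 and 0.295 under guide 395. EIF4EBP1 and EIF4EBP2 had no fixed order: EIF4EBP1 was higher in 8 of 18 libraries, with ratios of 0.308 to 3.57. These ratios rest on 3′ tags, and their differences between groups were not tested. Reads of EIF4A1, EIF4A2, EEF1A1 and EIF5A may be shared with overlapping genes or copies, as described above. Whether the orders of these genes reflect expression or the counting was not tested.

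Genes that act on these factors without belonging to them were taken from a list of 28 kinases, release factors, poly(A)-binding proteins and mTOR pathway genes, all of which were tested. In parental cells 13 were above 0 and 15 below, with a median of -0.01. Limma and edgeR called 0 of them, limma gave 4 (14.3%) at an unadjusted p under 0.05, beside 16.9% of all genes, and DESeq2 called 1 (3.57%), HBS1L, a ribosome rescue factor, beside the 3.16% lower and 2.94% higher of all genes given above. The 4 were EIF2AK1, the haem-regulated eIF2α kinase (0.54, adjusted p = 0.137), DHPS, which makes the hypusine of eIF5A (-0.64, 0.143), HBS1L (-0.56, 0.148) and RPTOR, the scaffold of mTOR complex 1 (-0.77, 0.244), each with log2 fold change and limma adjusted p. In DDX3Xoe and DDX3Yoe cells the 3 tools called 0 of the 28, and limma gave 0 at an unadjusted p under 0.05.

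Summed over members, the share of the normalised signal was 0.893 ± 0.078% (SD, n = 3) under AAVS1 and 0.783 ± 0.056% under guide 395 in parental cells. The difference of -0.110 percentage points had p = 0.2 in a two-sided exact permutation test, adjusted p = 0.6 over 3 kinds of cell, and 3 libraries against 3 cannot give less than 0.1. By library the shares were 0.979, 0.826 and 0.874% under AAVS1 and 0.848, 0.754 and 0.747% under guide 395, lower in all 3 same-numbered pairs, for which an exact test of sign flips within pairs, added after seeing the data, gave p = 0.25, the smallest it can give. In DDX3Xoe cells the shares were 0.933 ± 0.159% and 0.887 ± 0.032% for the libraries labelled AAVS1 and 395 (exact p = 0.7, adjusted p = 0.7). In DDX3Yoe cells they were 0.853 ± 0.028% and 0.808 ± 0.090% (exact p = 0.4, adjusted p = 0.6). EEF2 is the largest term of these sums. Without it the parental difference was -0.0556 percentage points, and the DDX3Xoe difference moved from -0.0455 to 0.00556. With mitochondrially encoded genes left out of the total, the parental shares were 1.13, 0.989 and 0.986% under AAVS1 and 0.932, 0.847 and 0.81% under guide 395. These groups do not overlap, and the difference of -0.171 percentage points had exact p = 0.1, the smallest possible. Unlike the p-values above, those with mitochondrial genes left out were not adjusted over the 3 kinds of cell. In DDX3Xoe and DDX3Yoe cells that difference was -0.0581 (exact p = 0.8) and -0.0616 (exact p = 0.4).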

How the data were processed

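RNA of 18 libraries was sequenced from the 3′ end. Per the submitters' processing notes, which state no roles, the tools were limma, featureCounts 1.5.1, STAR 2.5.2b and RSEM 1.3.0, with GRCh38. The deposited table holds a normalised signal per gene, which, as the values show, the authors scaled by 1 factor per library. Dividing each column by its smallest step gave whole reads for 100% of values (tolerance 0.01). No column of another series was used.

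Genes with a value of 10 or more in 3 or more libraries were tested on log2(value + 1) with limma 3.58.1 in R 4.3.3, all 6 groups in 1 fit (12 residual degrees of freedom), Benjamini-Hochberg adjusted over 15228 genes, threshold 0.05. On the recovered reads in parental cells, edgeR 4.0.16 called 119 genes lower and 125 higher, and DESeq2 1.42.0 called 471 lower and 438 higher. Code was tested on simulated data. Named members are, in each guide effect, the 6 of smallest p, and the most abundant of each factor group; further ones were chosen after their values were seen. The members and lists were chosen with earlier results of these data known.

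Same-numbered parental libraries deviated together (correlations 0.570, 0.201 and 0.280). The highest of these is that of the replicate 1 libraries, both among those of highest median log2 value. Libraries of different number were not compared, so whether the numbers mark pairs was not tested. In DDX3Xoe (0.231, -0.028 and 0.300) and DDX3Yoe cells (0.075, 0.114 and 0.238) not every same-numbered pair passed 0.1. Replicates differed beyond counting noise in every pair. Gene models came from GENCODE 29.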

Additional observations from a re-analysis of the deposited data

How the results depend on the processing

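The number of members called in parental cells was 0 and became 1 with the replicate block (EIF4ENIF1), 2 with DESeq2 and 2 with a replicate block within each kind of cell (EIF3K and EIF4ENIF1, beside 2.32% of all genes lower and 2.52% higher), the last added after seeing the data. Leaving out 1 library at a time gave 0 to 1. The 1 was EIF4ENIF1 without parental AAVS1 replicate 3, beside 1.1% of all genes lower and 1.31% higher. The block changed no other call of a member. Of 2229 alternative values of the 72 named fold changes over 31 alternatives, 66 had the other sign, spread over 31 of the 72, and none of those 31 was called in any setting. The difference in the members' share of signal in DDX3Xoe cells, -0.0455 percentage points, was 0.00556 without EEF2 (added after seeing the data) and 0.0345 without both replicate 1 libraries, and ranged from -0.123 to 0.036 with 1 library left out. With 3 libraries a group, differences of the size seen here may be missed, and members of low count such as EIF4E3 rest on few reads.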
